A study of Homo sapiens with 16 samples.

Results

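DNA replication and S phase genes encode the proteins that copy the chromosomes once per cell division. The list held 40 genes, each with a known role in replication or S phase entry, and 39 of them were found among the 20356 genes of the count table. The DNA methylation cofactor UHRF1 was not matched to a row, so its RNA was not analysed here. The cells were PC3, a human prostate cancer line in long use, labelled either as null for DDX4, a germ cell RNA helicase, or as control, and their mRNA was sequenced. The 4 groups were DDX4-null PC3 cells in monolayer, control PC3 cells in monolayer, DDX4-null PC3 xenograft tumors and control PC3 xenograft tumors, with 4 libraries each. Xenograft tumors are grown from human cells placed in an animal and also hold tissue of that animal. The series' design text calls the control cells wild type and asks what DDX4 does to the cancer-promoting properties of these cells. The labels do not state how DDX4 was removed, how many clones were used, which animal the tumors grew in or for how long. They also do not say that the 4 libraries of a group are separate cultures or animals, so each p-value covers the spread among libraries alone, and that spread may be technical. With the number of clones unknown, DDX4 loss and a difference between clones cannot be told apart.

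Replication begins with licensing, in which the origin recognition complex, CDC6 and CDT1 load the ring-shaped MCM2-7 helicase onto DNA in G1 phase, while geminin (GMNN) blocks CDT1 once S phase has begun. At the start of S phase CDC45, the GINS complex and MCM10 turn the loaded ring into a moving helicase, and primase and the DNA polymerases follow it. PCNA is the sliding clamp that holds polymerases on the template. Many of these genes are targets of E2F transcription factors, which are held back by the retinoblastoma protein and freed when cyclin E and cyclin D kinases act on it.

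The DNA before the starts of these genes was searched for E2F motifs. In the RefSeq promoter table on GRCh38.p14, which gives 250 bases before and 50 bases after each gene's start, 36 of the 40 genes had at least 1 promoter, and MCM4, MCM5, GINS4 and CCNE2 had none. Both strands were searched for 2 E2F motifs of 8 bases, TTTCCCGC and TTTGGCGC. A match to either lay in a promoter of 19 of these 36 genes, which is 52.8% and includes UHRF1, against 750 of all 27305 genes in the table, which is 2.75%. Of the replication genes 10 held only the first motif and 9 only the second, so no gene counted under both. Counted by promoter the shares were 19 of 48, or 39.6%, for the replication genes and 797 of 35116, or 2.27%, for all genes. A match is a description of letters and not a site bound in these cells.
The 150 bases before the start of 5 genes with a match are printed, with the motif in capitals. They had the largest DDX4-null change in monolayer among genes whose match lay wholly within these bases, which leaves out MCM3, with a match at -174, and CLSPN and POLE2, with matches across the start. GCGGGAAA is TTTCCCGC on the other strand, and each runs 5′ to 3′ on the strand of its gene.
GINS2, chr16:85688955-85689104, minus strand: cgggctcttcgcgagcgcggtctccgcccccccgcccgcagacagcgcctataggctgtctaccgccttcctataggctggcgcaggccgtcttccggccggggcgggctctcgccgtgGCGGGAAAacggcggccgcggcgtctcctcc
GMNN, chr6:24775263-24775412, plus strand: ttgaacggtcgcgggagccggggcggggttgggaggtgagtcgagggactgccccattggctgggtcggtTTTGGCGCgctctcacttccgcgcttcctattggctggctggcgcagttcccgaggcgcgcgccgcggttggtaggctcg
CDT1, chr16:88803639-88803788, plus strand: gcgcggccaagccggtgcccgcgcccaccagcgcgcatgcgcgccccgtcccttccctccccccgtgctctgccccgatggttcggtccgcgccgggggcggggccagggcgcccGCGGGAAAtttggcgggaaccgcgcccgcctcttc
E2F2, chr1:23531234-23531383, minus strand: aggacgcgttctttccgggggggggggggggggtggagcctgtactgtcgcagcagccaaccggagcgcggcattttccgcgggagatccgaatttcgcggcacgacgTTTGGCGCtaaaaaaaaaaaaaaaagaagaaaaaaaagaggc
PCNA, chr20:5126623-5126772, minus strand: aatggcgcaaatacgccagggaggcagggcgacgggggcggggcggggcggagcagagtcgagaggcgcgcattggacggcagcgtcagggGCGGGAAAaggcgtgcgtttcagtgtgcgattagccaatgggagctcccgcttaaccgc
In all 5 the match lay within 80 bases of the start, at -31 in GINS2, -80 in GMNN, -35 in CDT1, -42 in E2F2 and -59 in PCNA, counted to the first base of the match. E2F1 itself held the second motif at -20. MCM6 was the one gene with 2 matches, at -152 and -90.

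Levels are CPM, counts scaled to a common library total, after TMM scaling, which corrects that total for a few dominant genes. They are not divided by gene length, so they compare a gene between libraries and not genes with each other. Summed over the 39 genes, the level was 1858, 1807, 1691 and 1831 CPM in DDX4-null cells and 1022, 954, 947 and 1044 CPM in control cells. Tumors gave 1893, 1641, 1661 and 1845 CPM in DDX4-null tumors and 1874, 2136, 2275 and 2259.7 CPM in control tumors. All 4 control monolayer libraries lay below every other library, and DDX4-null and control tumors overlapped by the first library of each. Control monolayer cells had the lowest group mean for 35 of the 39 genes. The highest group mean was in control tumors for 23 genes, in DDX4-null cells for 15, in control cells for 1 and in DDX4-null tumors for 0.

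**Figure D1:**
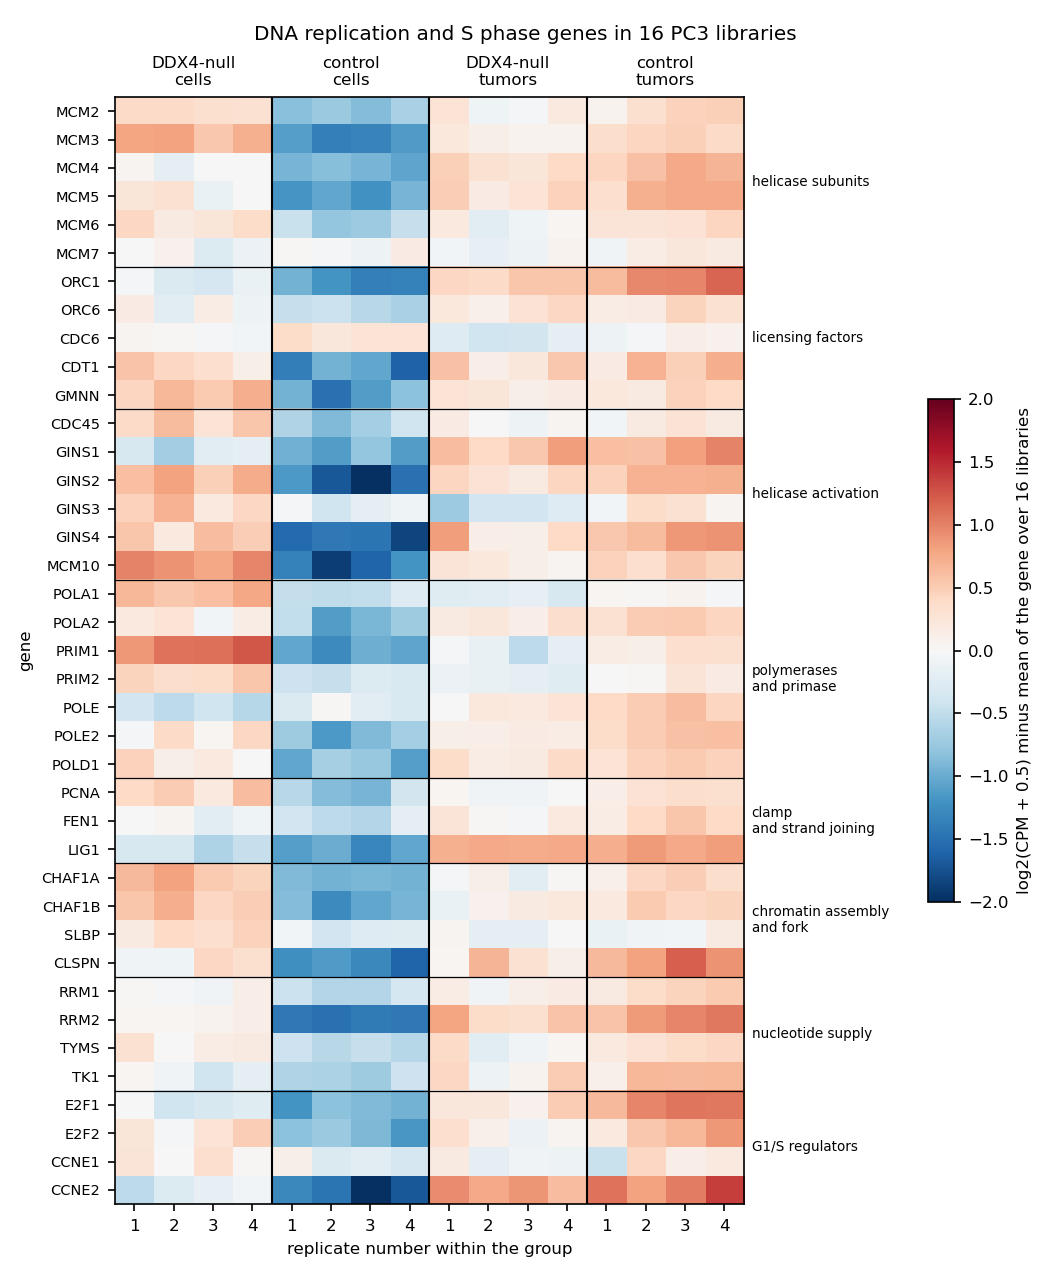
Level of each of the 39 genes (rows, by role) in each of the 16 libraries (columns, by group), as log2(CPM + 0.5) minus the gene's mean over all libraries. The control monolayer block has the lowest group mean, apart from MCM7, CDC6, POLE and GINS3, and control tumors hold the highest group mean for 23 genes.

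Libraries held 12204254 to 25443952 counts, and a count of 0 allows up to 3 counts, or 0.118 to 0.246 CPM, covering counting error only. The lowest count of any replication gene in any library was 8. DDX4 itself was near that floor in every group, with 7 counts in DDX4-null cells against 10 in control cells and 11 in DDX4-null tumors against 13 in control tumors, summed over 4 libraries. On the log2(CPM + 0.5) scale the exact permutation test, two-sided, gave p = 0.543 in monolayer and p = 0.971 in tumors, where 0.0286 is the smallest p that 4 libraries against 4 allow, so DDX4 RNA did not check the labels. The keratin KRT18, present in PC3, had 473 ± 48.0 CPM in DDX4-null cells, 278 ± 26.8 in control cells, 299 ± 33.1 in DDX4-null tumors and 274 ± 7.82 in control tumors (SD, n = 4 each). It is 1 of 7 PC3 and epithelial markers, whose log2 changes ran from -1.75 to 1.37 between DDX4-null and control cells and from -1.89 to 1.18 between control tumors and control cells. Their summed level averaged 4785 CPM in DDX4-null tumors and 3200 CPM in DDX4-null cells, and 3528 CPM in control tumors and 2375 CPM in control cells. The prostate secretory gene KLK2 was at 0 in all 16 libraries and KLK3 had at most 3 counts over any group.

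Tumor libraries carried markers of other tissues. The 8 fibroblast markers summed to 11023, 1660.2, 1910.2 and 1892 CPM in DDX4-null tumors and 1837, 1379.5, 1562 and 1881 CPM in control tumors, against 45.0 to 58.2 CPM in DDX4-null cells and 23.8 to 31.4 CPM in control cells. DDX4-null tumor 1 stood far above the other 7 tumors. The 6 skeletal muscle markers summed to 330.3, 335, 141 and 387 CPM in DDX4-null tumors and 291, 342, 362 and 161 CPM in control tumors, with DDX4-null tumor 3 and control tumor 4 low. The 8 leukocyte markers reached at most 71.3 CPM and 7 of 8 endothelial and pericyte markers, those matched, at most 55.0 CPM. The leukocyte sum averaged 36.71 CPM in DDX4-null and 22.01 CPM in control tumors, against 1.54 and 1.88 CPM in the respective cells. The endothelial and pericyte sum averaged 46.74 and 36.52 CPM in these tumors, against 34.49 and 21.45 CPM. In control tumors against control cells 4 of 4 leukocyte and 5 of 6 endothelial and pericyte markers tested were higher (edgeR adjusted p under 0.05). Among DDX4-null libraries these counts were 4 of 4 and 2 of 4. The T cell gene CD3E and the endothelial gene EMCN were at 0 in all DDX4-null tumors and held at most 2 counts over the control tumors.

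In monolayer, most replication genes were higher without DDX4. The quasi-likelihood F test of edgeR, adjusted over all 13006 genes tested, called 35 of 39 genes higher and 2 lower in DDX4-null than in control cells, where the same test called 35.0% of all genes higher and 32.3% lower. The median log2 change of the 39 genes was 1.10, against 0.02 for all genes tested. The 2 that fell were the licensing factor CDC6 and the leading strand polymerase POLE, and the 2 not called were the helicase subunit MCM7 and cyclin E1. With so many genes called in both directions, a single call in this comparison is common. In bulk RNA, a change in the share of cells in S phase and a change in the RNA of these genes per cell cannot be told apart.

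Of the 6 helicase subunits, 5 rose by 0.91 to 1.96 on the log2 scale and MCM7 did not pass. MCM3 (ENSG00000112118, chromosome 6) had the largest change, with 169, 171, 142 and 161 CPM in DDX4-null cells against 45.3, 37.8, 38.4 and 44.2 CPM in control cells. The groups lay far apart, and the difference was 1.96 ± 0.10 (log2 ± SE, edgeR adjusted p = 2.58e-12). MCM7 (ENSG00000166508, chromosome 7) had 128, 134, 105 and 117 CPM in DDX4-null cells and 129, 123, 118 and 143 CPM in control cells. These overlapped, with a difference of -0.08 ± 0.10 (edgeR adjusted p = 0.481). Genes of chromosome 7 as a whole had a median log2 difference of -0.73 in this comparison, the lowest of all chromosomes with at least 50 genes tested. With changes centred on the median of their chromosome MCM7 differed by 0.64, a value relative to chromosome 7 and not a higher level in DDX4-null cells. The other subunits of the ring, MCM2, MCM4, MCM5 and MCM6, rose by 1.13 ± 0.10, 0.92 ± 0.09, 1.22 ± 0.12 and 0.91 ± 0.10.

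Of the 5 licensing factors 4 rose and CDC6 fell. Geminin, the inhibitor of CDT1, had 25.6, 30.1, 27.3 and 31.4 CPM in DDX4-null cells and 9.54, 6.39, 8.45 and 10.4 CPM in control cells. Every DDX4-null library was above every control library, and the difference was 1.71 ± 0.14 (edgeR adjusted p = 1.64e-09). CDT1, the factor geminin restrains, rose by a like amount, 1.67 ± 0.16, and the origin recognition subunits ORC1 and ORC6 rose by 1.12 ± 0.15 and 0.53 ± 0.12. CDC6 (ENSG00000094804, chromosome 17), the ATPase that loads the helicase with CDT1, had 33.7, 32.9, 31.2 and 31.1 CPM in DDX4-null cells and 41.7, 37.6, 39 and 39 CPM in control cells. Its groups did not overlap either, in the opposite direction, with a change of -0.29 ± 0.09 (edgeR adjusted p = 0.011).

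All 6 genes of helicase activation rose, with a median log2 change of 1.62. MCM10, which is needed to start the helicase moving, had 9.45, 8.81, 8.07 and 9.36 CPM in DDX4-null cells and 1.46, 0.861, 1.16 and 1.68 CPM in control cells. This was the largest change of the 39 genes, 2.78 ± 0.18 (edgeR adjusted p = 8.11e-11), or 6.87-fold. GINS2 had 16.8, 19.4, 15.4 and 18.7 CPM in DDX4-null cells against 4.64, 3.01, 2.10 and 3.56 CPM in control cells, and GINS4 had 36.9, 28.6, 38.7 and 35.1 CPM in DDX4-null cells against 8.15, 8.90, 8.78 and 6.60 CPM in control cells. Both pairs of groups were apart, by 2.41 ± 0.18 for GINS2 and 2.10 ± 0.13 for GINS4. The 4 GINS subunits form 1 complex, and the other two rose less, GINS1 by 0.67 ± 0.14 and GINS3 by 0.65 ± 0.13, while the helicase cofactor CDC45 rose by 1.14 ± 0.13.

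Of the 7 polymerase and primase genes 6 rose and POLE fell. PRIM1, the catalytic primase subunit that makes the RNA primers, had 22.6, 26.4, 26.6 and 29.4 CPM in DDX4-null cells and 5.70, 4.74, 5.91 and 5.63 CPM in control cells. The change was 2.25 ± 0.13 (edgeR adjusted p = 1.21e-11), larger than that of its partner subunit PRIM2, 0.81 ± 0.10; the difference between the partners was not tested. The polymerase alpha subunits POLA1 and POLA2 rose by 1.09 ± 0.10 and 0.95 ± 0.13, and the lagging strand polymerase POLD1 by 1.10 ± 0.13. POLE (ENSG00000177084, chromosome 12) had 33.8, 30.6, 33.4 and 29.5 CPM in DDX4-null cells and 35.9, 44.7, 38.0 and 35.6 CPM in control cells. Its groups were close but did not overlap, the change was -0.28 ± 0.11 (edgeR adjusted p = 0.0259), and the call was lost in 5 of 16 alternatives, among them without DDX4-null library 2 or 4 or control library 2. POLE2, the second subunit of the same polymerase, rose by 1.11 ± 0.15.

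The clamp and strand joining genes all rose. PCNA had 122, 132, 106 and 142 CPM in DDX4-null cells and 63.1, 50.7, 48.5 and 71.7 CPM in control cells. The libraries varied within each group but did not overlap, and the change was 1.10 ± 0.12 (edgeR adjusted p = 2.18e-07). DNA ligase LIG1 had 19.9, 19.9, 16.1 and 17.9 CPM in DDX4-null cells and 11.3, 12.3, 9.83 and 11.8 CPM in control cells, a change of 0.71 ± 0.12. The flap nuclease FEN1 showed the smallest rise of the called genes, 0.36 ± 0.10, and its groups overlapped.

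All 4 measured genes of chromatin assembly and fork protection rose. The chromatin assembly factor subunit CHAF1B had 31.0, 35.3, 28.2 and 29.9 CPM in DDX4-null cells and 11.4, 8.40, 9.998 and 10.9 CPM in control cells. It rose by 1.61 ± 0.12 (edgeR adjusted p = 6.56e-10) and its partner CHAF1A by a close amount, 1.57 ± 0.11. The checkpoint adaptor CLSPN rose by 1.57 ± 0.16, and the histone mRNA binding protein SLBP by 0.59 ± 0.11.

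Nucleotide supply genes rose in 4 of 4 cases. RRM2, the S phase regulated subunit of ribonucleotide reductase, had 97.8, 97.2, 99.4 and 104 CPM in DDX4-null cells and 35.0, 33.4, 35.2 and 34.9 CPM in control cells. Replicates were tight in both groups, and the change was 1.52 ± 0.09 (edgeR adjusted p = 2.39e-11). Its large subunit partner RRM1 rose by 0.51 ± 0.09, thymidylate synthase TYMS by 0.67 ± 0.10 and thymidine kinase TK1 by 0.44 ± 0.11, a call that TK1 lost in 1 of 16 alternatives.

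Among the G1/S regulators 3 of 4 rose. E2F2, an activating E2F, had 2.20, 1.71, 2.25 and 2.69 CPM in DDX4-null cells and 0.795, 0.861, 0.718 and 0.517 CPM in control cells. Its levels were low and separate, with a change of 1.62 ± 0.25 (edgeR adjusted p = 9.48e-06). E2F1 had 21.7, 16.3, 17.2 and 18.2 CPM in DDX4-null cells and 9.14, 12.1, 11.55 and 11.1 CPM in control cells, a change of 0.75 ± 0.13. Cyclin E2 (CCNE2), a partner of CDK2, had 4.72, 5.73, 6.19 and 6.72 CPM in DDX4-null cells and 2.58, 2.22, 1.33 and 1.81 CPM in control cells, a change of 1.57 ± 0.20. Cyclin E1 (CCNE1) had 4.51, 3.72, 4.79 and 3.75 CPM in DDX4-null cells and 4.04, 2.94, 3.09 and 2.85 CPM in control cells. Here the groups overlapped and the difference, 0.37 ± 0.17 (edgeR adjusted p = 0.0599), did not pass, although 4 of 15 alternatives called it higher.

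The 3 genes that did not follow the others, MCM7, CDC6 and POLE, each held an E2F match, at -187, 8 and -18 from the start. MCM10 and PRIM1, with changes of 2.78 and 2.25, held none, while GINS2 and MCM3, with changes of 2.41 and 1.96, held a match. Over all genes with a promoter 19 held a match and 17 did not, and a relation of matches to changes was not tested. CCNE1, not called in monolayer, also held none.

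**Figure D2:**
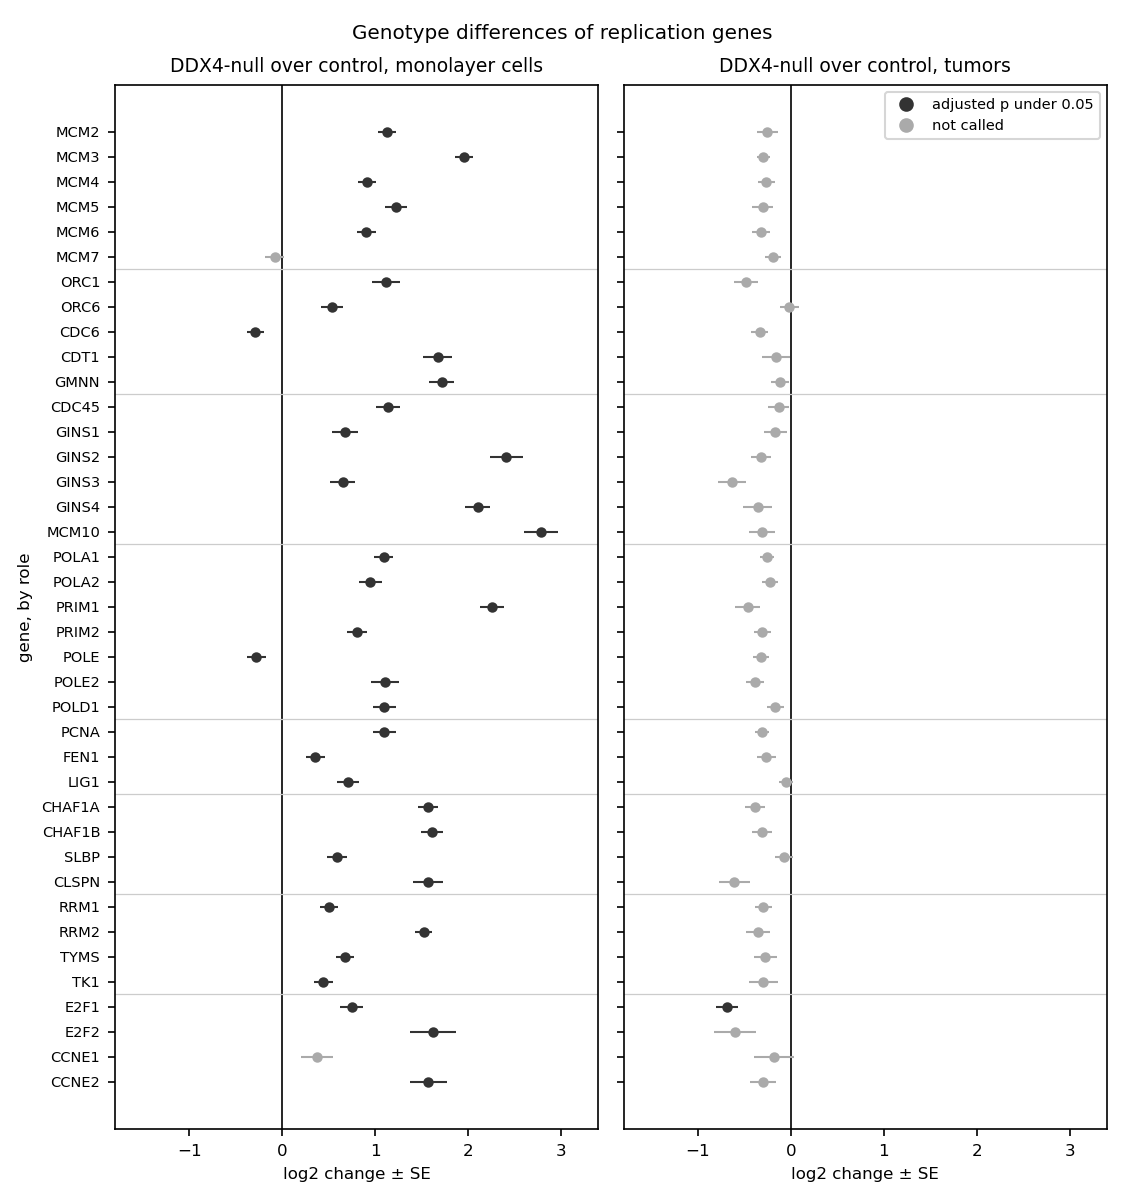
Log2 change of DDX4-null over control for each gene (rows, by role) in monolayer cells (left) and tumors (right), with bars of 1 standard error and dark points for adjusted p under 0.05. In monolayer 35 of 39 points are dark and right of 0; in tumors all 39 points are left of 0, or 37 when centred by chromosome, and E2F1 alone is dark.

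In tumors the difference between genotypes was small and in the other direction. All 39 genes had a log2 difference below 0 between DDX4-null and control tumors, with a median of -0.30 against -0.00 for all 12942 genes tested, and 37 were below 0 when centred by chromosome. Only E2F1 was called. The edgeR test called 0 of 39 genes higher and 1 lower, where it called 0.981% of all genes higher and 1.10% lower. At an unadjusted p under 0.05 it gave 0 higher and 27 lower. The share of all genes at an unadjusted p under 0.05 was not counted, here or below. DESeq2 called 0 of the 39 genes higher and 12 lower, where it called 481 of all 12942 genes higher and 399 lower. Every DDX4-null tumor lay below every control tumor in CPM for 15 of the 39 genes, against 7.02% of all genes tested. The opposite order held for 0 of the 39, and its share of all genes is not given. Since these genes are regulated together, their shared direction is not 39 separate observations.

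E2F1 (ENSG00000101412, chromosome 20) had 25.6, 25.5, 23.0 and 31.0 CPM in DDX4-null tumors and 34.3, 42.9, 46.2 and 45.4 CPM in control tumors. Every DDX4-null tumor was below every control tumor, and E2F1 fell by 0.69 on the log2 scale, with an SE of 0.12 (edgeR adjusted p = 0.0208). The call was lost without DDX4-null tumor 2 (edgeR adjusted p = 0.0530), without control tumor 2 (0.0746) and without control tumor 3 (0.0888). Genes of chromosome 20 had a median log2 difference of -0.19 in tumors, and centred on it E2F1 differed by -0.50 (edgeR adjusted p = 0.0666).

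By role, the median tumor difference was -0.28 for helicase subunits, -0.16 for licensing factors, -0.32 for helicase activation and -0.31 for polymerases and primase. It was -0.27 for the clamp and strand joining genes, -0.35 for chromatin assembly and fork genes, -0.30 for nucleotide supply and -0.45 for G1/S regulators. After E2F1 the most negative values were -0.63 ± 0.15 for GINS3, -0.61 ± 0.16 for CLSPN and -0.60 ± 0.23 for E2F2, none of which passed (edgeR adjusted p = 0.0612, 0.084 and 0.164). The values nearest 0 were -0.02 ± 0.10 for ORC6, -0.05 ± 0.07 for LIG1 and -0.08 ± 0.10 for SLBP.

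MCM3 had 113, 106, 103 and 103 CPM in DDX4-null tumors and 125, 132, 137 and 127 CPM in control tumors, which did not overlap. PCNA had 94.7, 88.3, 88.5 and 92.2 CPM in DDX4-null tumors and 102, 113, 119 and 116 CPM in control tumors, again without overlap. Neither was called, at -0.30 ± 0.07 (edgeR adjusted p = 0.0667) and -0.31 ± 0.08 (edgeR adjusted p = 0.0668). RRM2 had 164, 123, 119 and 142 CPM in DDX4-null tumors and 141, 171, 187 and 198 CPM in control tumors, where the groups overlapped.

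Single tumors stood apart within their groups. Control tumor 1 had the lowest level of its group for 33 of the 39 genes, and DDX4-null tumor 1, the one with the high fibroblast markers, had the highest level of its group for 21. Without DDX4-null tumor 1 the test called 2 genes lower, E2F1 and GINS4, 38 of 39 differences were below 0 and the median was -0.32. Without control tumor 1 it called 1 lower and the median was -0.34. The part of the fibroblast and muscle markers in the tumor differences was not tested otherwise.

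**Figure D3:**
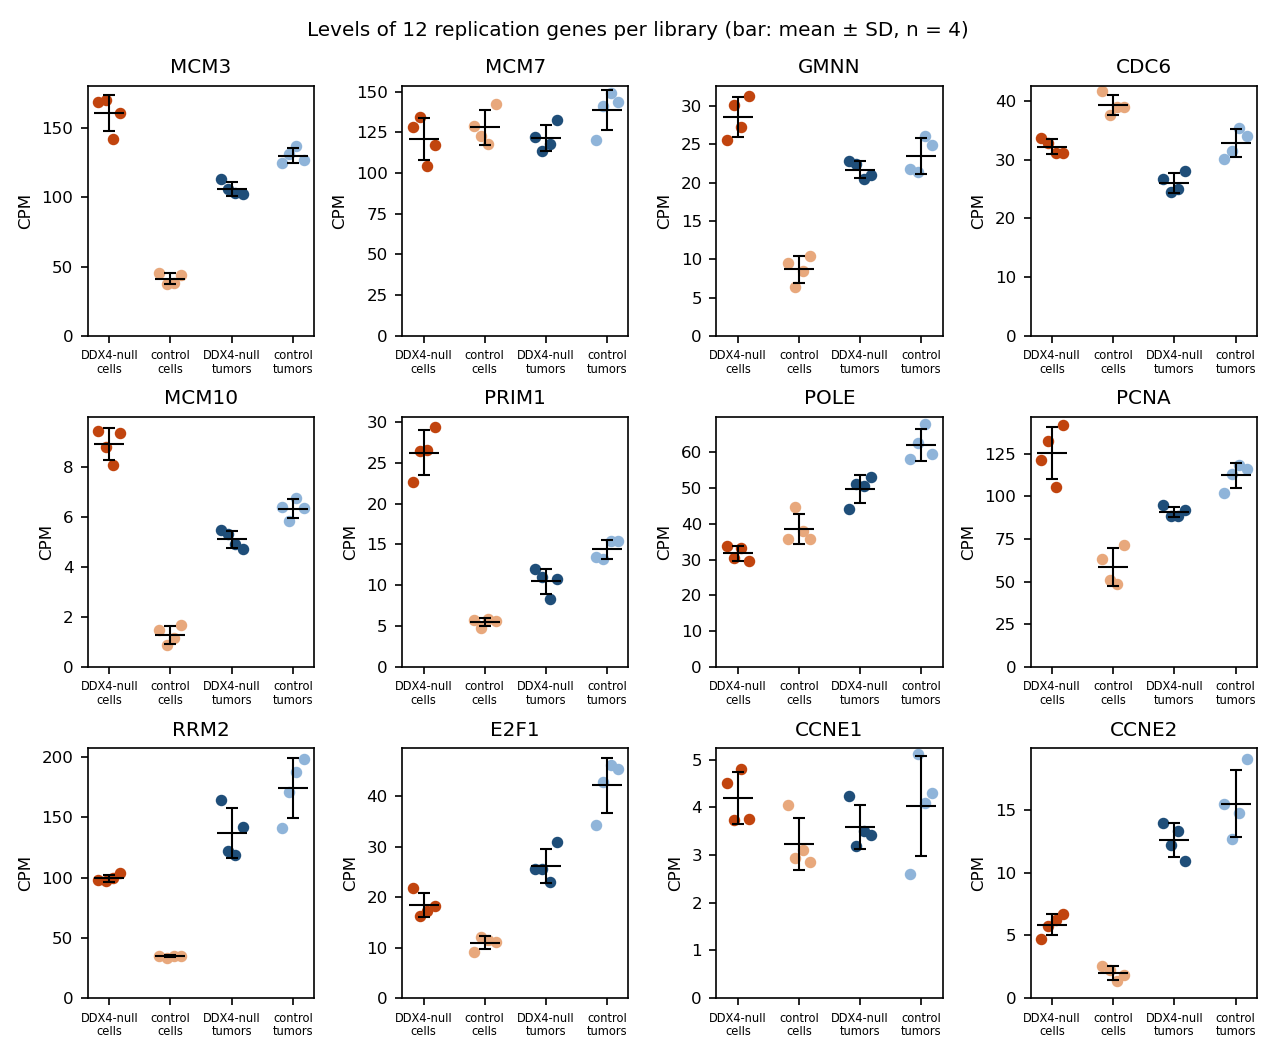
CPM of 12 genes in every library, for DDX4-null cells, control cells, DDX4-null tumors and control tumors from left to right, with the group mean and SD (n = 4). The control cells are the low group for MCM3, GMNN, MCM10, PRIM1, PCNA, RRM2, E2F1 and CCNE2. They are not the low group for MCM7, CDC6 and POLE, and for CCNE1 they have the lowest mean but overlap the other groups.

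The genotype difference itself differed between settings. In a model of all 16 libraries the DDX4-null effect in tumors minus that in monolayer was lower for 35 of 39 genes and higher for 0, where the edgeR test called 26.8% of all 13603 genes lower and 26.0% higher. At an unadjusted p under 0.05 the counts were also 35 and 0. DESeq2 gave 35 and 0 too, where it called 3739 of all 13603 genes lower and 3591 higher. All 39 values were below 0, or 38 when centred by chromosome, with a median of -1.35 against -0.02 for all genes tested. The most negative were -3.09 ± 0.23 for MCM10, -2.73 ± 0.22 for GINS2 and -2.72 ± 0.18 for PRIM1. The 4 not called were MCM7 at -0.11 ± 0.14, CDC6 at -0.05 ± 0.12, POLE at -0.04 ± 0.13 and CCNE1 at -0.56 ± 0.28, the same 4 that were not higher in monolayer. For CDC6 and POLE the difference between genotypes was close in size in both settings, at -0.34 ± 0.09 and -0.32 ± 0.09 in tumors, where neither passed (edgeR adjusted p = 0.0774 and 0.0866). Whole chromosomes also differed between settings, with medians of tumors minus monolayer from -0.49 for chromosome 21 to 0.72 for chromosome 7. The median DDX4-null difference of chromosome 7 was -0.73 in monolayer and 0.01 in tumors. Whether DDX4-null cells and DDX4-null tumors hold the same cell populations was not tested.

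Tumors were then compared with monolayer cells within each genotype. Both comparisons use the same libraries as the genotype comparisons, so their values stand side by side and are not independent. Control tumors against control cells gave 35 of 39 genes higher and 1 lower, where the edgeR test called 33.9% of 12858 genes higher and 31.0% lower, with a median log2 change of 1.34 against 0.02 for all genes. DDX4-null tumors against DDX4-null cells gave 9 higher and 16 lower, where it called 34.6% of 13277 genes higher and 35.3% lower, with a median of -0.07 against -0.00. Leaving out single libraries moved that median between -0.23, without DDX4-null tumor 1, and -0.03, without DDX4-null tumor 2. Tumors and monolayer cells also differ in host tissue, and the part of that in these values was not tested.

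**Figure D4:**
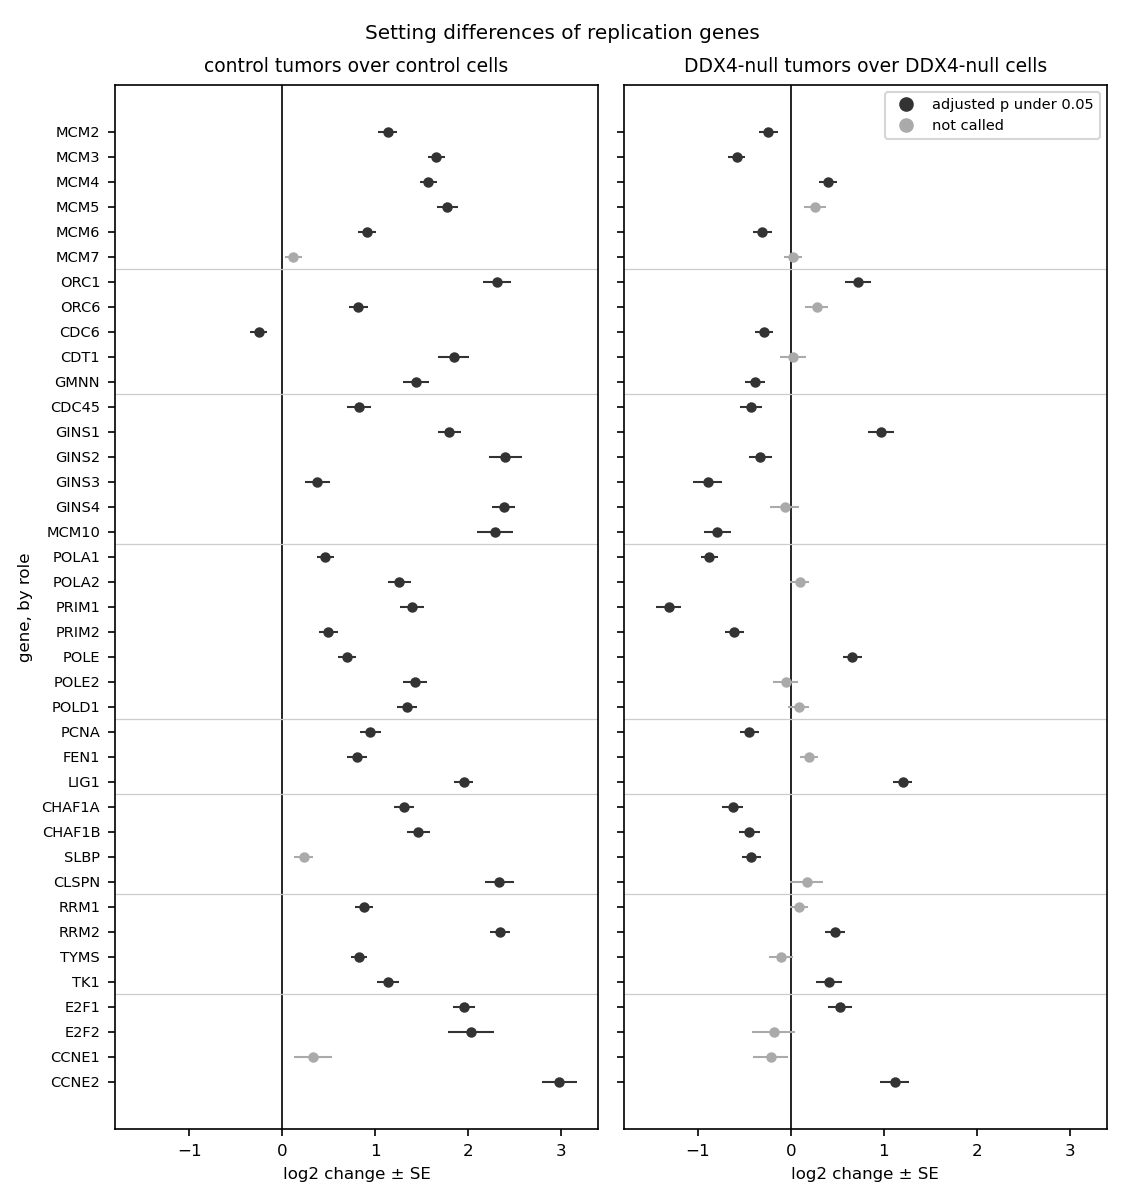
Log2 change of tumors over monolayer cells for each gene (rows, by role), for control libraries (left) and DDX4-null libraries (right), with bars of 1 standard error and dark points for adjusted p under 0.05. On the left 35 genes are dark and right of 0, and on the right 9 are dark and right of 0 and 16 dark and left of 0.

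Among control libraries the largest rises were in cyclin E2, GINS2 and GINS4. CCNE2 had 15.5, 12.6, 14.7 and 19.1 CPM in control tumors, against the 1.33 to 2.58 CPM of control cells given above, a rise of 2.98 ± 0.19 (edgeR adjusted p = 5.59e-10), or 7.90-fold. GINS2 had 15.3, 17.9, 17.9 and 18.2 CPM and GINS4 had 36.5, 38.8, 46.0 and 46.9 CPM in control tumors, and they rose by 2.40 ± 0.18 and 2.38 ± 0.12. E2F1 rose by 1.95 ± 0.12, RRM2 by 2.34 ± 0.11 and the claspin gene CLSPN by 2.34 ± 0.15. CDC6 fell to 30.1, 31.5, 35.4 and 34.1 CPM in control tumors, all below its 4 control cell libraries, a change of -0.25 ± 0.09 (edgeR adjusted p = 0.0202) that was lost with library totals and without control cell library 1 or control tumor 1. POLE, lower in DDX4-null than in control cells, was higher in control tumors than in control cells, by 0.69 ± 0.10. MCM7, SLBP and CCNE1 were not called, at 0.12 ± 0.09, 0.23 ± 0.10 and 0.33 ± 0.20.

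Among DDX4-null libraries the genes were called in both directions, 23.1% higher and 41.0% lower, beside 34.6% and 35.3% of all genes. LIG1 had 41.0, 42.6, 41.9 and 42.7 CPM in DDX4-null tumors, more than in any DDX4-null cell library, a rise of 1.20 ± 0.10 (edgeR adjusted p = 2.2e-07). CCNE2 had 13.97, 12.16, 13.3 and 10.96 CPM in DDX4-null tumors, a rise of 1.12 ± 0.16, and GINS1 had 33.6, 28.9, 31.9 and 39.3 CPM in DDX4-null tumors against 17.4, 13.3, 18.9 and 19.2 CPM in DDX4-null cells, a rise of 0.97 ± 0.14. The other 6 that rose were ORC1, POLE, E2F1, RRM2, TK1 and MCM4, by 0.72, 0.66, 0.53, 0.47, 0.41 and 0.40.

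The largest falls were in primase, GINS3 and polymerase alpha. PRIM1 had 11.9, 10.97, 8.36 and 10.7 CPM in DDX4-null tumors, below every DDX4-null cell library, a change of -1.31 ± 0.14 (edgeR adjusted p = 1.57e-06). GINS3 had 6.46, 8.33, 8.30 and 9.09 CPM in DDX4-null tumors against 15.4, 18.1, 12.7 and 14.7 CPM in DDX4-null cells, a change of -0.90 ± 0.15. POLA1 had 33.4, 34.1, 35.2 and 31.7 CPM in DDX4-null tumors against 62.8, 57.9, 60.7 and 68.1 CPM in DDX4-null cells, a change of -0.88 ± 0.09. GINS1 and GINS3, subunits of 1 complex, were thus called in opposite directions. In 16 of the 39 genes at least 1 alternative changed the call in this comparison, against 5 genes among control libraries.

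Further genes of replication, of the retinoblastoma and E2F network and of mitosis were read from lists chosen by role. Of 50 other replication genes 34 rose and 4 fell in DDX4-null cells against control cells, with a median log2 change of 0.47, where 35.0% of all genes were called higher and 32.3% lower. The ubiquitin ligase adaptor DTL, which marks CDT1 for destruction, rose by 1.57 ± 0.11, and the chromatin remodeller HELLS by 1.58 ± 0.12. The falls with the smallest p were POLD4, a small polymerase delta subunit, at -1.44 ± 0.14, the single-strand DNA binding subunit RPA3 on chromosome 7 at -0.81 ± 0.15, and the histone chaperone RBBP4 at -0.45 ± 0.09. In tumors 0 rose and 1 fell, the fork protein WDHD1 at -0.48 ± 0.09 (edgeR adjusted p = 0.0252), with 0 higher and 12 lower at an unadjusted p under 0.05, where 0.981% of all genes were called higher and 1.10% lower.

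Of 28 genes of the retinoblastoma and E2F network 18 rose and 3 fell in DDX4-null cells, where 35.0% of all genes were called higher and 32.3% lower. Cyclin D2 (CCND2), which activates CDK4 and CDK6, had 7766 counts over the 4 DDX4-null cell libraries against 3 over the 4 control cell libraries, a ratio of 2314 relative to library totals, with an exact 95% counting interval of 791 to 11221. The atypical E2F repressor E2F8 rose by 2.10 ± 0.16 and the CDK4 inhibitor gene CDKN2A by 1.02 ± 0.10. The CDK inhibitor CDKN1A fell to 36.9 ± 4.996 CPM in DDX4-null cells, against 71.5 ± 5.98 CPM in control cells (SD, n = 4 each), a change of -0.96 ± 0.11, and the repressors E2F6 and E2F7 changed by -0.45 ± 0.12 and -0.32 ± 0.10. CDKN1A was lower also in control tumors than in control cells, at -1.42 ± 0.10. In tumors the list had 13 of 28 differences above 0 and 15 below. There 1 gene was called higher and 2 lower, where 0.981% of all genes were called higher and 1.10% lower. At an unadjusted p under 0.05 the counts in tumors were 7 higher and 4 lower. CCND2 was higher, 2.23 ± 0.855 CPM in DDX4-null tumors and 0.615 ± 0.245 CPM in control tumors (SD, n = 4 each), a difference of 1.83 ± 0.37 (edgeR adjusted p = 0.0341). Its level in DDX4-null tumors was nevertheless far below that in DDX4-null cells, with the lowest log2 change of this list, -5.55. MYBL2, an activator of late cell cycle genes, and RBL1, a relative of the retinoblastoma protein, fell by 0.91 and 0.61 in DDX4-null against control tumors (edgeR adjusted p = 0.00439 and 0.0155).

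Of 27 G2 and mitosis genes 25 rose and 0 fell in DDX4-null cells, with a median log2 change of 1.02, where 35.0% of all genes were called higher and 32.3% lower. At an unadjusted p under 0.05 also 0 were lower. In tumors 24 of 27 differences were below 0, with a median of -0.21. There 1 gene was called higher and 2 lower, where 0.981% of all genes were called higher and 1.10% lower. At an unadjusted p under 0.05 the counts in tumors were 1 higher and 11 lower. In DDX4-null cells the proliferation marker MKI67 rose by 1.59 ± 0.09, topoisomerase TOP2A by 1.64 ± 0.10 and the spindle checkpoint kinase BUB1B by 1.54 ± 0.10. In DDX4-null against control tumors CDC25B, a CDK1 phosphatase, rose by 0.47 ± 0.10, and the mitotic genes TPX2 and AURKA fell by 0.56 and 0.44. Of the 7 genes of these lists called in tumors, 5 lie on chromosome 20, as E2F1 does. That chromosome held 352 of the 12942 genes tested in tumors, with a median difference of -0.19, and its share of all calls was not counted. Centred by chromosome, the calls of RBL1, TPX2, AURKA and WDHD1 were lost (edgeR adjusted p = 0.0605, 0.114, 0.168 and 0.0593), while MYBL2, CDC25B and CCND2 were still called.

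Mitosis genes gave other counts between settings than replication genes. In DDX4-null tumors against DDX4-null cells 26 of 27 mitosis genes fell and 0 rose, with a median log2 change of -0.91, where 34.6% of all genes were called higher and 35.3% lower. The 39 replication genes had 9 higher, 16 lower and a median of -0.07. In control tumors against control cells 15 mitosis genes rose and 3 fell, with a median of 0.37, beside 1.34 for the replication genes, where 33.9% of all genes were called higher and 31.0% lower. The summed mitosis level was 1532 to 1775 CPM in DDX4-null tumors against 3382 to 3587 CPM in DDX4-null cells, and 1708 to 2111 CPM in control tumors against 1667 to 1838 CPM in control cells. TOP2A had 112 ± 9.31 CPM in DDX4-null tumors and 370.1 ± 30.7 CPM in DDX4-null cells, with 129.7 ± 16.5 CPM in control tumors and 119 ± 9.41 CPM in control cells (SD, n = 4 each). RRM2, 1 of the 9 replication genes called higher in DDX4-null tumors than in DDX4-null cells, had 137 ± 20.9 CPM in tumors and 99.6 ± 3.03 CPM in cells. PRIM1, 1 of the 16 called lower, had 10.5 ± 1.52 CPM in tumors and 26.3 ± 2.79 CPM in cells. The difference between both lists was not tested.

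**Figure D5:**
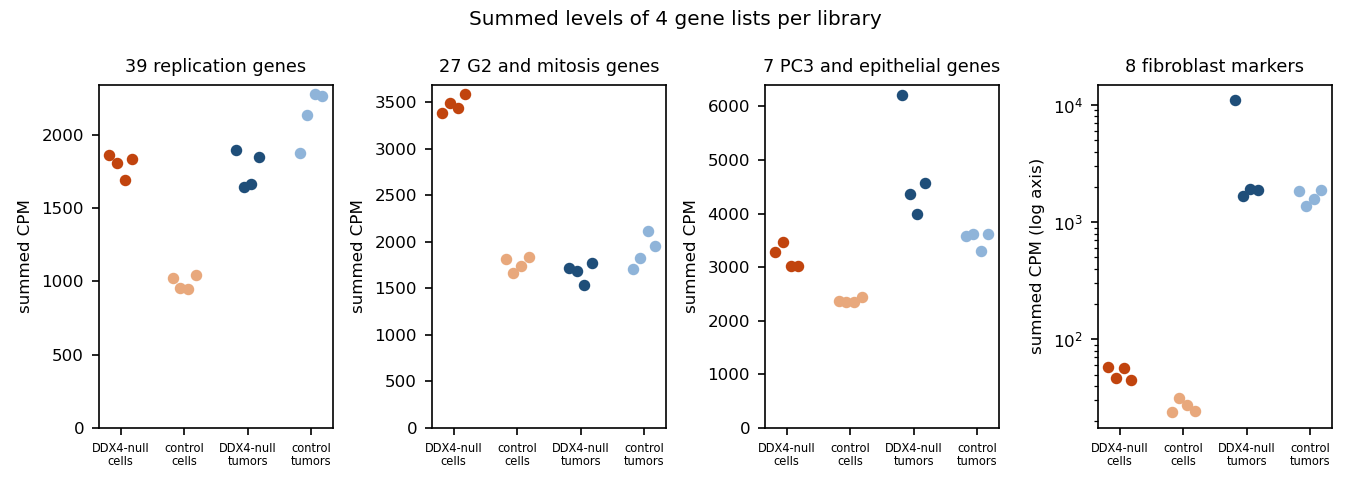
Summed CPM per library of the 39 replication genes, 27 G2 and mitosis genes, 7 PC3 and epithelial genes and 8 fibroblast markers (log axis), for DDX4-null cells, control cells, DDX4-null tumors and control tumors from left to right. The replication sum is low in control cells alone, at 1044 CPM or less, against 1641 CPM or more in every other library. The mitosis sum is high in DDX4-null cells alone, and DDX4-null tumor 1 stands out in the fibroblast markers.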

How the data were processed

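The authors deposited raw read counts per Ensembl gene for 16 libraries, which were used as deposited. The TruSeq Stranded mRNA kit (Illumina) was used on DNase-treated total RNA, per the labels' protocols. Per the submitters' processing notes, Trimmomatic 0.39, STAR 2.7.10a, featureCounts 2.0.3 and the build GRCh37 were used. The labels and notes do not state the strand setting, the annotation or whether host reads were removed, and host reads can be counted on human genes.

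The members and lists were chosen with earlier results of these data known. Symbols came from a gene name table (19446 IDs) and GENCODE v29 (65 more), leaving 845 unnamed IDs in the tests. Chromosome names came from GENCODE v29 on GRCh38 by Ensembl ID, and promoter sequences from RefSeq on GRCh38.p14, another build than that of the counts.

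Tests used edgeR 4.0.16 in R 4.3.3 (quasi-likelihood F test, TMM, filterByExpr, Benjamini-Hochberg adjustment over all genes tested, called at 0.05) on the 8 libraries compared, or on all 16 for the difference between settings. All 39 genes passed the filter in each of the 5 comparisons. The SE is the log2 change divided by the root of F. Log2 changes used factors of their comparison and levels factors over all 16 libraries. DDX4 was compared with the exact permutation test of scipy 1.17.1. The steps were tested on simulated counts.

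Values in every library are given by rule for genes called in tumors, the largest called monolayer change of each of the 8 roles, genes not called or against their role in monolayer, and the 3 largest called setting changes in each direction; other members are given by their change. From each further list up to 3 called genes of each direction in monolayer with the smallest p, and each called in tumors, are named. Some genes of the further lists and markers are not reported here. Replicates of a group differed beyond sampling noise, with a chi-square per degree of freedom of at least 3.75. Alternatives were DESeq2 1.42.0, library totals or RLE factors in place of TMM, no filter or one at 5 CPM, a replicate block, centring by chromosome, a model of all 16 libraries and leaving out each library.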

Additional observations from a re-analysis of the deposited data

Results flagged for a closer look

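GINS2 in control tumor 1, at 15.3 CPM, was far from the 17.9 to 18.2 CPM of the other 3 control tumors. POLA1 in control cell library 4, at 33.2 CPM, was far from the 27.8 to 28.3 CPM of the other 3. Each gap passed Dixon's 95% critical value for 4 samples, which chance passes in about 1 of 20 groups, and 80 groups were looked at.

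The genotype effect differed between tumors and monolayer by an interaction test for 35 of the 39 replication genes, all lower in tumors. The same test called 26.8% of all 13603 genes lower and 26.0% higher. Tumors minus monolayer, the log2 difference was -1.43 for E2F1, -2.25 for MCM3, -1.83 for GMNN, -3.09 for MCM10 and -2.72 for PRIM1. It was -1.41 for PCNA, -1.92 for CHAF1B, -1.88 for RRM2 and -2.22 for E2F2.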

How the results depend on the processing

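The 35 genes higher in DDX4-null cells, the 35 higher in control tumors and the 35 with a lower effect in tumors stayed within 1.5 times their count in every alternative. The count of genes lower in DDX4-null cells was 2, but 1 with library totals, 1 centred by chromosome and 1 to 2 leaving out single libraries. Lower in control tumors than in control cells was 1 gene, but 0 with library totals and 0 to 1 leaving out single libraries. Lower in DDX4-null tumors than in control tumors was 1 gene, against 12 with DESeq2, 10 in the model of all 16 libraries, 4 with library totals, 3 with the replicate block, 0 centred by chromosome and 0 to 2 leaving out single libraries. The cause was not tested. Correlations of same-numbered deviations were -0.160 to 0.274. Libraries with different numbers were not correlated, so these values do not show whether the replicate numbers pair the libraries. The replicate block moved no other count of replication genes by over 1.5 times.

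Single values reversed for MCM7 in monolayer, 0.64 centred by chromosome, and for the difference between settings of CDC6, 0.20 centred by chromosome, and of POLE, which ran from -0.098 to 0.032 leaving out single libraries and was above 0 without control cell library 1 or 4, DDX4-null tumor 1 or control tumor 3. In DDX4-null tumors against DDX4-null cells 8 genes changed sign in at least 1 alternative, MCM7, CDT1, GINS4, POLA2, POLE2, POLD1, FEN1 and RRM1, between -0.52 (MCM7) and 0.28 (GINS4), none of them among the 9 called higher and 16 called lower, though MCM7, POLE2, POLD1 and RRM1 were each called in 1 alternative. Library totals moved the median of all genes to 0.19 for control tumors against control cells and to -0.16 for the difference between settings. Genes called higher and lower were then 5569 and 2870, against 4354 and 3986 with TMM, for control tumors against cells, and 2721 and 4404, against 3532 and 3649, for the difference between settings. In DDX4-null against control tumors 127 genes were higher and 143 lower, against 481 and 399 with DESeq2, 470 and 338 in the model of all 16 libraries, 258 and 167 with the replicate block, and 11 and 15 without control tumor 3. A call was changed by at least 1 alternative for 4 genes in monolayer, 5 in control tumors against cells, 16 in DDX4-null tumors against cells and 3 in the difference between settings. Depth limits the lowest genes, E2F2 and MCM10 in control cells.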
